A study of Drosophila melanogaster with 4 samples.

Results

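Broad domains of trimethylation at lysine 36 of histone H3 (H3K36me3) are described here for the autosomal arms 2L, 3L and 3R of Drosophila melanogaster. A broad domain is a region of enrichment, as called by the authors in their combined list for the series, that is at least 10 kb (10000 bp) wide. The arm 2R was not analysed here. Regions were left out where they began in the 1 Mb next to the centromere (on 2L after base 22011544, on 3L after base 23543557, on 3R up to base 1000000). This gave 406 domains among the 2221 regions considered on these arms and the 3981 of the combined list. The domains were chosen by measured values, their width and position in the combined list, so widths, scores and bases are given as a description, with no test.

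The chromatin came from nuclei of last-instar larvae of the wild-type strain Oregon-R (Oregon-R-modENCODE), with no transgene or treatment named in the labels. The series has 4 samples: 2 ChIP replicates made with the abcam antibody against H3K36me3, and 2 inputs, which are chromatin sequenced without immunoprecipitation. Per ChIP replicate the authors deposited 1 list of regions, beside the combined list, and coordinates are on FlyBase release 5 per the file headers. Whether the replicates are separate larval collections is not stated, and differences between them may be technical. Homogenised tissue mixes many cell types, and a domain present in a few of them cannot be told apart from a weaker one present in all. The read depth behind the lists is unknown.

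H3K36me3 is laid down in the bodies of active genes by the methyltransferase Set2, which travels with elongating RNA polymerase II, and it is usually stronger towards the 3′ part of a gene. Chromodomain and PWWP-domain proteins such as MRG15, MSL3 and JASPer bind the mark. Active genes of the fly are often short and closely packed, so a wide stretch of the mark can be a single long gene or several neighbouring active genes. These cases cannot be told apart here, because the gene table at hand is of release 6 and no domain was assigned to a gene.

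The domains were few but held a large share of the marked sequence. They made up 18.3% of the regions considered and 43.0% of their bases, 6.15 of 14.3 Mb. Their widths ran from 10000 to 46330 bp around a median of 13289 bp, with the middle 50% between 11422 and 17090 bp. Of the 406, 140 were under 12 kb, 151 were at least 15 kb, 62 at least 20 kb, 10 at least 30 kb and 2 at least 40 kb. The 1815 narrower regions of the same arms had a median width of 4075 bp.

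No break in the widths marks the 10 kb limit. The narrowest domains were 2L from 11506287 to 11516286 (10000 bp), 2L from 9933431 to 9943431 (10001 bp) and 3L from 22276722 to 22286723 (10002 bp). The widest regions left outside were 3L from 19795407 to 19805385 (9979 bp), 3L from 11679537 to 11689444 (9908 bp) and 3L from 7343657 to 7353553 (9897 bp). The domain at 2L 11506287 measured 9648 bp in the first replicate and 10102 bp in the second, a difference that by itself crosses the limit.

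The authors' score of a region, a deposited value of unstated unit, was mostly high in the domains, and its quartiles lay closer together than in the narrower regions. Over the domains the score had a median of 2.02 (quartiles 1.84 and 2.18, range 1.03 to 2.78). The median domain stood at percentile 79.7 of all 3981 combined regions, with a range from 30.1 to 99.8. The narrower regions had a median of 1.40 with quartiles of 0.677 and 1.84. Scores were higher in wider regions up to about the limit and differed little beyond it: the median was 0.293 from 1 kb to under 2 kb, 1.21 from 2 kb to under 5 kb and 1.82 from 5 kb to under 10 kb. Among the domains it was 1.93 from 10 kb to under 12 kb, 2.04 to under 15 kb, 2.07 to under 20 kb, 2.13 to under 30 kb and 2.06 in the 10 widest. Spearman's rho of width and score across the 406 domains was 0.301, a description, since domains share their libraries.

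High scores were also found in narrower regions, and low scores in domains. Of the narrower regions, 256 (14.1%) scored above the median domain, and the highest score on these arms, 2.90, belonged to a narrower region. In the other direction, 28 domains scored below the median of the combined list, and 657 narrower regions (36.2%) scored below the lowest domain.

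**Figure D1:**
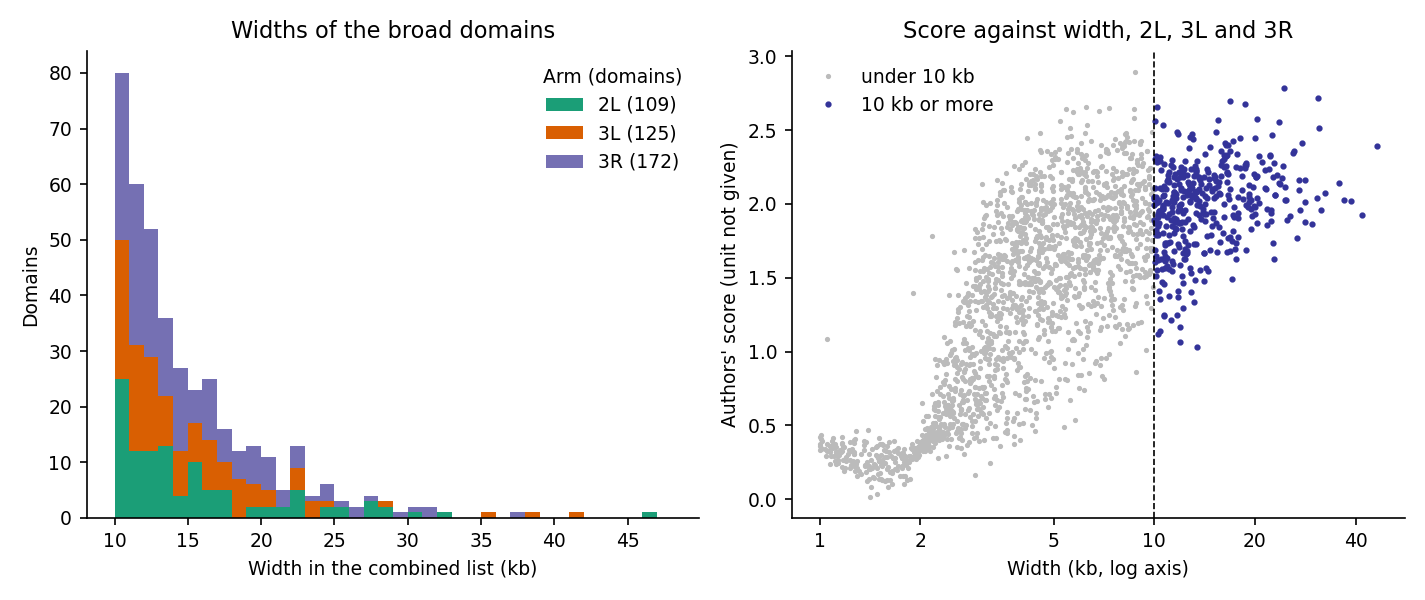
Left, number of domains by width in the combined list, in bins of 1 kb, stacked by arm. Right, the authors' score (unit not given) against width on a log axis for the 406 domains (blue) and the 1815 narrower regions (grey) of 2L, 3L and 3R, with a dashed line at 10 kb; the median score is 0.293 from 1 kb to under 2 kb and 2.02 over the domains.

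The 5 domains with the highest scores lay on 3R and 2L, and each was a single region in both replicates. The domain on 3R from 20060552 to 20085055 (24504 bp) scored 2.78 in the combined list, 2.71 in replicate 1 and 2.88 in replicate 2. It was followed by 3R from 6137308 to 6168180 (30873 bp), which scored 2.72, 2.71 and 2.72. Next came 3R from 27603171 to 27619987 (16817 bp) with 2.70, 2.71 and 2.70. On 3R from 20145547 to 20164239 (18693 bp) the scores were 2.68, 2.62 and 2.79, and on 2L from 5315420 to 5325600 (10181 bp) 2.66, 2.57 and 2.79. All 5 ranked above percentile 99 in each of the 3 lists.

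The lowest scores were about 1. The lowest was on 3R from 4599067 to 4612510 (13444 bp), with 1.03 in the combined list, where replicate 1 listed 3 regions scoring 1.21, 0.991 and 0.375 and replicate 2 listed 2 regions scoring 1.28 and 1.26. The domains on 3L from 16054762 to 16066714 (combined score 1.06) and on 3R from 20576632 to 20586872 (1.12) were single regions in both replicates. Low scores were therefore seen in split and in unbroken domains.

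Every domain was found in both replicates, and most were a single region in each. Of the 406 domains, 316 (77.8%) were 1 region in both replicate lists, counting any overlap of at least 1 bp; over all 2221 autosomal regions the same share was 83.5%, lowered by 214 narrower regions that were missing from at least 1 replicate. Of the 1601 narrower regions found in both replicates, 96.1% were 1 region in each. In replicate 1, 54 domains (13.3%) were listed as several regions, beside 3.69% of all autosomal regions. In replicate 2 it was 59 domains (14.5%), beside 4.46%. Both replicates broke the same 23 domains (5.67%), beside 1.31% of all autosomal regions, while 31 were broken in replicate 1 alone and 36 in replicate 2 alone. The share of domains that were 1 region was 86.1% ± 0.871 (SD, n = 2 replicates). These counts rest on the same libraries as the list that chose the domains, and a gap closed in the combined list adds to the width that the rule used, so the shares are set side by side without a test.

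The pieces were few. Of the broken domains, 29 were 2 regions in replicate 1 and 1 in replicate 2, 34 were the reverse, and 17 were 2 regions in each. A further 9 were 3 regions in at least 1 list, and 1 domain was 4 regions in both. The share broken did not follow width evenly. In replicate 1 it was 9.29% from 10 kb to under 12 kb, 6.96% to under 15 kb, 20.2% to under 20 kb and 21.2% to under 30 kb. In replicate 2 it was 12.9%, 14.8%, 12.4% and 17.3% in the same classes. From 30 kb it was 4 of only 10 domains in each replicate. Below 30 kb the share thus differed between narrower and wider domains mainly in replicate 1. Per length, replicate 1 and replicate 2 each had 63 gaps inside the domains, or 10.3 per Mb, against 3.68 and 4.90 per Mb in the narrower regions. A narrow region leaves less room for a break between called regions, and these rates do not allow for that.

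**Figure D2:**
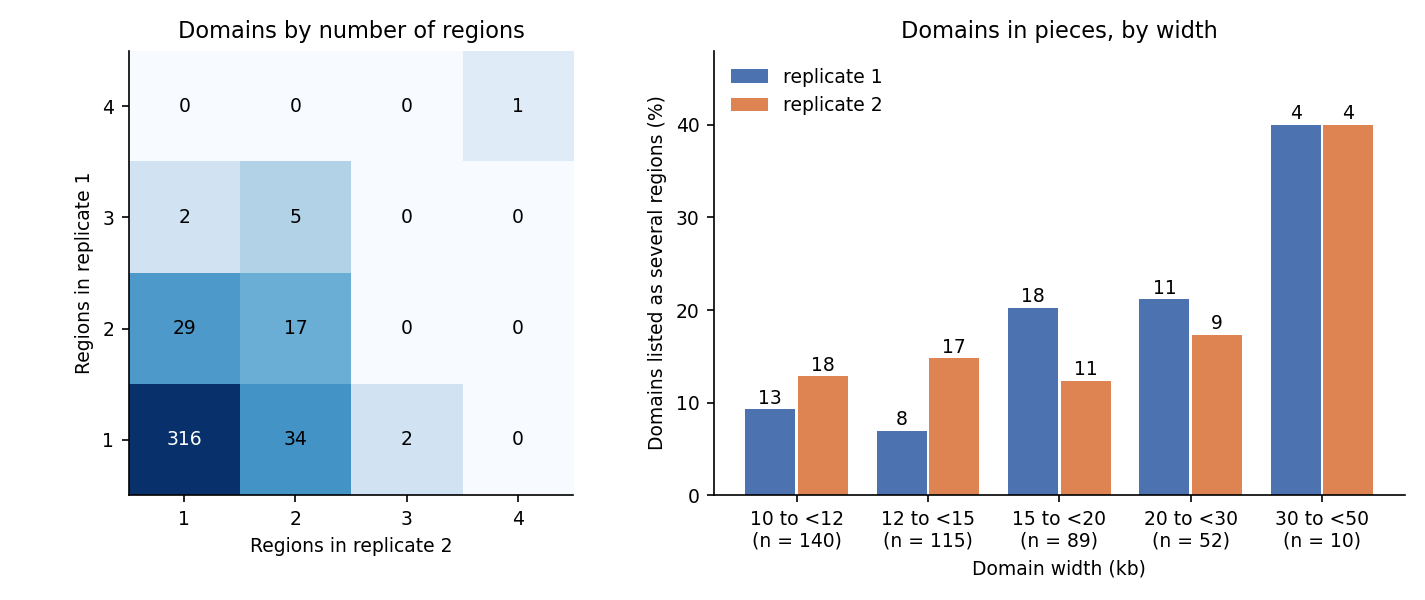
Left, number of domains by how many regions they hold in replicate 1 (vertical) and replicate 2 (horizontal); darker cells hold more domains, on a log scale, and 316 of 406 are 1 region in both. Right, percent of domains listed as several regions in each replicate, by width class in kb, with the number of such domains over each bar; the widest class has 4 of 10 in each replicate.

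The same comparison can be made without the combined list, by choosing wide regions in 1 replicate and looking at the other. Replicate 1 had 361 regions of at least 10 kb on the sequence considered. Of these, 320 (88.6%) were 1 region in replicate 2, 41 (11.4%) were several and 0 were missing. Of the 366 such regions of replicate 2, 331 (90.4%) were 1 region in replicate 1, 35 (9.56%) were several and 0 were missing. Regions under 10 kb were rarely broken, 2.40% and 1.63% in the other list, but 1.71% of those of replicate 1 and 6.02% of those of replicate 2 were missing from it. Per length the difference was smaller: the other list had 7.85 and 7.13 gaps per Mb in the wide regions and 5.10 and 3.71 per Mb in the narrower ones. The wide regions had more gaps per Mb in both directions, but these rates do not allow for the room that a break needs. The narrowest autosomal region of the combined list had 1001 bp. A smaller share of a narrow region can thus hold a break between called regions.

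The gaps that broke a domain were short. Their median width was 131 bp in replicate 1 (quartiles 29 and 289.5 bp) and 100 bp in replicate 2 (quartiles 41.5 and 338 bp). Gaps under 100 bp numbered 29 and 31 of the 63 in replicates 1 and 2, and only 5 and 4 reached 1 kb, the longest having 2089 and 1460 bp. A gap of under 100 bp was thus often all that separated the pieces. With replicate regions less than 500 bp apart joined, 95.6% of the domains were 1 region in both replicates.

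Where both replicates broke a domain, the breaks mostly fell in the same place. In 16 of the 23 domains a gap of replicate 1 and a gap of replicate 2 shared at least 1 base, and in 21 a pair of gaps lay within 500 bp of each other. The widest shared gap was on 3R in the domain from 18535246 to 18552580 (17335 bp), with 1464 bp in replicate 1 and 524 bp in replicate 2, all 524 bp shared. In the other 2 domains, on 3L from 6178384 to 6194904 and from 18656396 to 18668335, the gaps of the replicates lay 9998 and 4725 bp apart.

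The score often differed between the sides of such a break, mostly with the same sign in both replicates. Of the 23 pairs of gaps within 500 bp, 20 had a step in score from left to right of the same sign in both lists. The step was over 0.2 in both lists for 9 pairs, and all 9 had the same sign. In the domain on 3L from 2591427 to 2602956 the score was 2.10 on the left and 0.894 on the right in replicate 1, and 2.22 and 0.974 in replicate 2. On 3R, in the domain from 1377986 to 1397442, it was 1.15 on the left and 1.86 on the right in replicate 1, and 1.08 and 1.96 in replicate 2. Such domains join a lower-scored and a higher-scored stretch that each replicate lists apart. In both examples the lower-scored side was a short end piece, with the gap 2724 and 2441 bp from the domain's end in replicate 1. Narrow regions also scored lower in general, and whether the steps reflect the strength of the mark was not tested.

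Over all broken domains the pieces differed in score by a median of 0.493 in replicate 1 and 0.518 in replicate 2, taking the highest and the lowest piece. In 39 of 54 broken domains of replicate 1 and 44 of 59 of replicate 2 the narrowest piece also scored lowest. Most broken domains had 2 pieces, so many would meet this without any relation of width and score. Scores also rose with width among the narrower regions of the combined list. The median was 0.293 from 1 kb to under 2 kb and 1.82 from 5 kb to under 10 kb. The difference between the highest and the lowest piece was over 1 in 11 and 14 domains and under 0.2 in 18 of each. Breaks between pieces of near equal score and breaks between pieces of unlike score were thus both common.

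The 5 widest domains show these patterns. The widest, on 2L from 8035097 to 8081426 (46330 bp), was 3 regions of 5131, 2790 and 37905 bp in replicate 1 and 2 regions of 5308 and 40820 bp in replicate 2. Its left end scored lower in both: 1.61 and 1.68 against 2.48 for the long piece in replicate 1, and 1.70 against 2.50 in replicate 2. The gaps had 8 and 4 bp in replicate 1 and 183 bp in replicate 2.

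On 3L from 15947746 to 15989521 (41776 bp) replicate 1 had a single region of 41700 bp that scored 1.92. Replicate 2 had 2 regions of 21932 and 19224 bp, which scored 2.15 and 1.73. The replicates thus differed on whether this domain is broken near its middle.

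The domain on 3L from 180808 to 219647 (38840 bp) was the one with the most pieces, 4 in each replicate. From left to right they scored 1.79, 2.24, 2.05 and 0.372 in replicate 1 and 1.82, 2.35, 2.07 and 0.592 in replicate 2. Widths followed the same order, 6166, 12386, 17652 and 1586 bp against 6301, 12075, 17201 and 2252 bp. The replicates listed the same 4-part arrangement.

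On 3R from 7032153 to 7069209 (37057 bp) both replicates had 1 region, of 37093 and 36848 bp, scoring 2.00 and 2.07. The domain on 3L from 8102933 to 8138576 (35644 bp) was broken near its middle in both. Its left piece had 18479 bp and scored 2.37 in replicate 1, and 18367 bp and 2.42 in replicate 2. Its right piece scored 1.91 and 1.78.

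**Figure D3:**
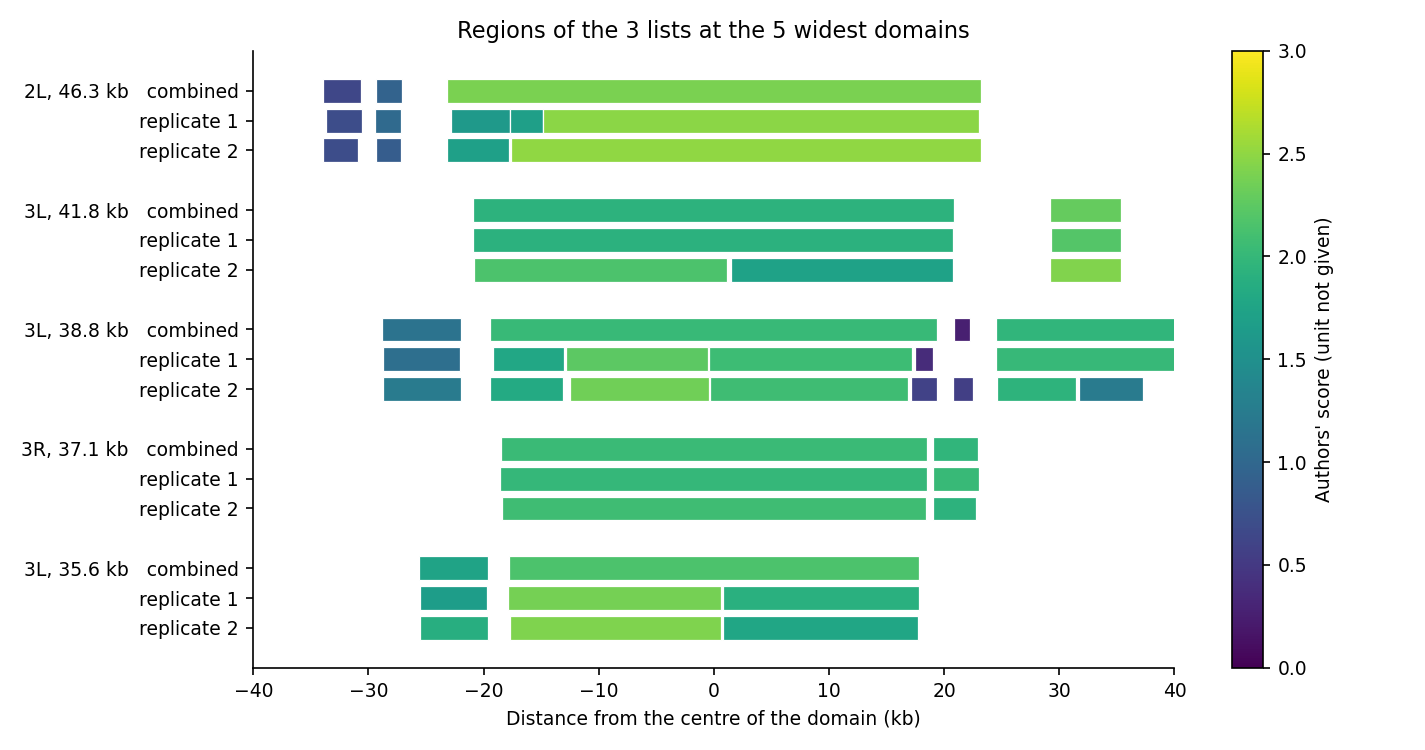
Regions of the combined list, replicate 1 and replicate 2 at the 5 widest domains, placed by distance in kb from the centre of the domain and coloured by the authors' score (unit not given). White lines mark the ends of regions, so gaps of a few bases look wider than they are, and neighbours are cut at 40 kb; the domain of 38.8 kb has 4 regions in each replicate, and that of 37.1 kb has 1.

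The replicates covered nearly all bases of the domains. Both covered 97.0% of the domain bases, 0.872% were in replicate 1 alone, 1.65% in replicate 2 alone and 0.432% in neither. The median domain was covered for 98.8% in replicate 1, 99.4% in replicate 2 and 98.2% by both at once, and 23 domains were covered by both for less than 90%. The median narrower region was covered by both for 94.1%. Of the 1815 narrower regions 616 were under 90%, among them the 214 missing from at least 1 replicate. A shift of an end by the same number of bases takes a smaller share of a wider region, so these shares do not rank the classes. The least covered in replicate 1 was 3R from 22937815 to 22948604 (69.3%): replicate 1 listed only its left 7480 bp, while replicate 2 also had a right piece of 3005 bp that scored 0.405. In replicate 2 the least covered was 3L from 20411251 to 20433635 (80.4%), where replicate 1 alone listed a left piece of 2610 bp that scored 0.502. In both cases the missing part was a low-scored flank.

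The called ends of the domains differed between the replicates about as much as those of narrower regions. In the 316 domains that were 1 region in both replicates, the starts and ends differed between replicates by 80 bp in the median (quartiles 35 and 159 bp), and 57.0% were within 100 bp. The median for the narrower regions was 82 bp, with 57.3% within 100 bp. Differences over 1 kb were found at 19 of 632 domain boundaries (3.01%, against 2.50% in narrower regions). The largest was 12102 bp, on 3L in the domain from 13999958 to 14012732. There the region of replicate 1 ran from 14000041 to 14024460, across 2 neighbouring domains, and that of replicate 2 ended at 14012358.

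Widths and scores of these 316 domains followed each other closely in the replicates. Spearman's rho across domains was 0.976 for width and 0.909 for score, again a description. Replicate 2 was wider in 203 and narrower in 113, with a median absolute difference of 150 bp. Ranked within each list, the median score percentile was 79.2 in replicate 1 and 78.6 in replicate 2, a mean of 78.9 ± 0.447 (SD, n = 2). The percentile of a domain differed between replicates by a median of 3.61 points, and 38 of the 316 differed by more than 10 points. The largest shift was on 3R from 9459542 to 9470776, at percentile 84.0 in replicate 1 and 55.0 in replicate 2.

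The width limit itself was met less evenly in the replicates than these values show. A region of at least 10 kb lay in 356 of the domains in replicate 1, in 359 in replicate 2, in 329 in both and in 20 of the domains in neither. Of those 20, 6 were 1 region in both replicates, none wider than 10587 bp in the combined list, and the other 14 were broken in at least 1 replicate. Of the regions of at least 10 kb in the replicate lists, 357 of 361 and 364 of 366 overlapped a domain.

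Along the genome, 3R held the most domains for its length. The combined list had 109 on 2L, 125 on 3L and 172 on 3R, or 4.95, 5.31 and 6.39 per Mb of sequence considered. In the replicate lists, regions of at least 10 kb numbered 4.54 and 4.50 per Mb on 2L, 4.80 and 4.59 on 3L and 5.50 and 5.91 on 3R. The means were 4.52 ± 0.0321, 4.69 ± 0.150 and 5.71 ± 0.289 (SD, n = 2), so 3R stood apart from the other arms by more than the spread between replicates, while 2L and 3L differed by little more than it. The difference was not tested. Regions of any width were as dense on 3L as on 3R, 31.3 and 31.4 per Mb, but 17.0% of them were domains on 3L and 20.3% on 3R. Within the replicate lists the shares of regions of at least 10 kb were 16.1% and 14.5% on 3L and 18.2% and 19.0% on 3R. Median widths were alike on the arms, 13300 bp on 2L, 13066 bp on 3L and 13286 bp on 3R, as were median scores of 2.02, 2.02 and 2.03.

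The share of unbroken domains was lowest on 3L in both replicates, but in replicate 1 it was only slightly below that on 3R. On 3L 84.8% of the domains were 1 region in replicate 1 and 78.4% in replicate 2, whereas on 3R the shares were 86.0% and 90.1%. On 2L they were 89.9% and 86.2%. The other arms, 2L and 3R, changed places between the replicates.

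Domains were found along most of each arm. When the sequence considered was divided into 10 equal parts from the free end to the centromere, the parts held 48, 44, 48, 42, 40, 42, 36, 29, 52 and 25 domains over the 3 arms. The part next to the centromere had the fewest, and there 11.7% of the regions were domains, against 14.9% to 22.1% in the other parts. Within an arm the pattern was less regular: the last part held 6 domains on 2L, 6 on 3L and 13 on 3R, but on 2L the eighth part had fewer, 5.

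Counts per 1 Mb varied widely. Whole windows of 1 Mb, 71 in number, held a median of 5 domains. The densest was 3R from 20000001 to 21000000 with 14, followed by 3L from 1000001 to 2000000 and 3R from 5000001 to 6000000 with 12 each. No domain began in 2L from 14000001 to 15000000, which had 10 narrower regions, or in 3R from 26000001 to 27000000, which had 27. Both windows thus held regions of the mark, all of them under 10 kb. The replicate lists differed by at most 1 region of at least 10 kb in 62 of the 71 windows, and by at most 2 in any.

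The longest stretch without a domain was on 3R, from 25875988 to 27278512 (1403 kb), and it held 39 narrower regions of up to 9528 bp. In replicate 2, but not in replicate 1, 2 regions of at least 10 kb overlapped it, but none of either replicate began between 26000001 and 27000000. On 2L the longest was 8519764 to 9887819 (1368 kb), with 31 narrower regions, and on 3L 22286724 to 23543557 (1257 kb), with 28, which ends at the sequence left out. Each of these was overlapped by 1 region of at least 10 kb in replicate 1 and by none in replicate 2. On 3L it was the region of the bordering domain, which ended at 22286779, just inside the stretch. These counts thus include regions of bordering domains that reach past the edge. Each of these stretches carried many narrower regions.

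Domains often lay near another domain. The gap to the nearest other domain, edge to edge, was 25047 bp in the median (quartiles 5079 and 82938 bp), and for 137 domains (33.7%) it was under 10 kb. Those 137 formed 61 runs in which neighbours were less than 10 kb apart: 48 of 2 domains, 11 of 3 and 2 of 4. At the other extreme, 84 domains had no other within 100 kb. The replicate lists gave medians of 28579 and 28175 bp for their own regions of at least 10 kb.

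The longest run was on 3R from 1353120 to 1437285 (84.2 kb), with 4 domains of 20247, 19457, 27030 and 10642 bp and 1 narrower region between them. The combined list covered 95.6% of it, replicate 1 94.5% and replicate 2 95.2%. Each replicate listed 6 regions there, 4 of them at least 10 kb wide. The other run of 4, on 2L from 10239711 to 10291250 (51.5 kb), had domains of 10213, 10107, 15138 and 10629 bp with unequal scores of 2.28, 1.65, 2.18 and 2.53. The combined list covered 93.6% of this 2L run, replicate 1 93.8% and replicate 2 91.5%. Each replicate listed 5 regions in it, 4 of them at least 10 kb wide. Both runs were thus nearly continuous in every list.

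The closest pair on 3L, from 6158211 to 6178378 and from 6178384 to 6194904, was separated by 5 bp. The closest pairs on 3R and 2L were separated by 60 bp (11142668 to 11154303 and 11154364 to 11166120) and 144 bp (6943021 to 6968037 and 6968182 to 6985005). The domains farthest from any other were 2L from 15040578 to 15052660 (1136 kb to the next), 3L from 17829506 to 17848372 (791 kb) and 3R from 2917430 to 2928171 (431 kb). Even these had narrower regions nearby on 2L and 3R, 1298 and 2156 bp away, while on 3L the nearest lay 27535 bp away.

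Gaps to the nearest region of any width were short. The median gap measured 1691 bp (quartiles 590 and 5935 bp), against 2218 bp for the narrower regions. For 90 domains (22.2%) another region lay less than 500 bp away, beside 20.9% of all autosomal regions. In the replicate lists the medians were 1867 and 1618 bp for regions of at least 10 kb (1742 ± 176, SD, n = 2) and 2466 and 2122 bp for narrower ones (2294 ± 243). The wide regions had the lower median in each list. At the 90 close neighbours the separation was mostly repeated: 83 were apart in both replicate lists, and in 0 cases did both replicates join them.

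The 10 kb on either side of a domain were covered by other regions for a mean of 33.9%, against 29.3% for the narrower regions. The replicate lists gave 33.1% and 34.8% for regions of at least 10 kb and 29.1% and 29.8% for narrower ones, so the higher share next to wide regions was seen in every list. No other region lay within 10 kb of 65 domains (16.0%) and of 18.1% of the narrower regions, while 23.9% and 17.6% had flanks covered for 50% or more.

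**Figure D4:**
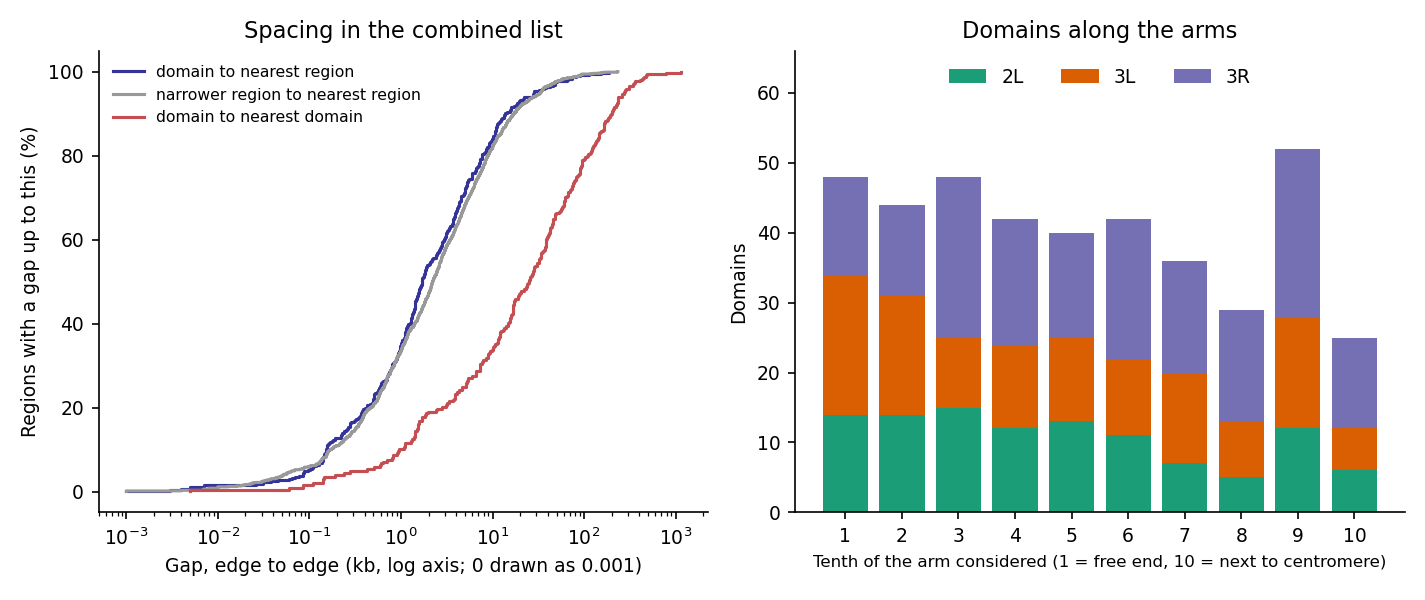
Left, percent of regions with a gap up to the value on the log axis (kb, edge to edge) for domains and narrower regions to the nearest region of any width, and for domains to the nearest domain, in the combined list; the medians are 1691, 2218 and 25047 bp. Right, number of domains in 10 equal parts of the sequence considered on each arm, stacked by arm; the part next to the centromere holds 25 of the 406.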

How the data were processed

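The submitters' processing notes name Bowtie 0.12.7, a read aligner, and coordinates are on FlyBase release 5, per the file headers. The values analysed are the positions of the enriched regions and the deposited score of each, which the authors gave with no unit. The region caller, its thresholds, the use of the inputs and the making of the combined list are not given in the sources used here. Thresholds and the joining of neighbouring calls decide widths and breaks. Scores were ranked within a list; since their unit is not given, scores of different lists are set side by side as a description only. Regions were matched by an overlap of at least 1 bp; gaps count the bases between regions. Python 3.11.15, numpy 2.4.6, pandas 2.3.3 and scipy 1.17.1 were used, and the scripts were tested on simulated regions. No test was run, because the rule used these lists and regions of 1 genome are not replicates. Members, comparisons and the rule for regions named (extremes of width, score, pieces, coverage and spacing) were chosen with earlier results of these data known; the domains named for their lowest scores, score steps, boundary or percentile differences, and the second run of 4, were chosen after their values were seen. Alternatives were other width limits, whole arms, a score minimum, joining of neighbours, other overlaps and each replicate list alone.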

Additional observations from a re-analysis of the deposited data

How the results depend on the processing

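Of 54 alternative values for 8 results, 24 stayed within the limits set and 30 moved. The limits were 1.5 times for a count and the SD between replicates for other values. For the boundary difference the SD was taken as 56.6 bp, from its median of 80 bp between the replicates. A limit of 15 kb left 151 domains with 21.6% of the covered bases, 70.9% of them 1 region in both replicates, 98.9% median coverage by both, a median of 126062 bp to the next domain and 1431 bp to the next region, and median score percentile 84.7. A limit of 8 kb gave 54.4% of the bases, 80.7% unbroken, 15832 bp and percentile 77.8. Both limits change the members by construction. Whole arms gave 42.3% of the bases. A score minimum at the list's median gave 55.7% of the bases, 81.5% unbroken and 4055 bp to the next region. Joining neighbours under 500 bp apart had the largest effect on breaks: with replicate regions joined, 95.6% of the domains were 1 region in both, and with combined regions joined the domains held 52.0% of the bases and lay 20449 bp apart. Centre to centre, the medians were 40087 bp to the next domain and 13634 bp to the next region. Leaving out either replicate, the domains of the combined list were 85.5% to 86.7% unbroken, with 98.8% to 99.4% median coverage. By definition, neither value can fall when 1 list is counted in place of both. With the remaining replicate's own list in place of the combined list there were 361 to 366 domains, 39.4% to 39.6% of the bases, 28175 to 28579 bp to the next domain, 1618 to 1867 bp to the next region and percentile 78.5 to 78.6. The cause of the remaining shifts was not tested. No paired analysis was possible because only the ChIP samples have lists here, and the inputs that carry the same numbers have none. What depth limits was not tested, since it is unknown.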

Other observations

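In the sequence left out next to the centromeres, the combined list had 72 regions, of which 4 were at least 10 kb wide. All 4 were on 3R, and 0 were on 2L or 3L.

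Wide regions of a replicate list did not all become domains. Of those of replicate 1, 4 overlapped no domain, and of those of replicate 2, 2 did. A single replicate 1 region, and 0 of replicate 2, reached across more than 1 domain.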
